A study of Mus musculus with 20 samples.

Results

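The mouse 2-cell embryo was profiled on 4 of 20 Affymetrix MOE430B arrays, the second chip of a mouse pair. The 4 arrays titled as 2-cell were set against the 16 arrays of the other stages, 4 each from oocytes, 1-cell embryos, 8-cell embryos and blastocysts, with each of these stages weighted equally. All samples were mouse oocytes or preimplantation embryos without any treatment named in the labels, and total RNA of every group was amplified by in vitro transcription in 2 rounds. Strain, age of the mothers, hours after fertilization and the number of embryos per array are not in the labels, so it is not known how early or late in the 2-cell stage each array was taken.

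At the 2-cell stage the mouse embryo passes from stored maternal RNA to RNA of its own. The oocyte is transcriptionally silent when ovulated, and its stored transcripts are deadenylated and degraded after meiotic maturation and fertilization. A weak wave of transcription begins in the 1-cell embryo and the main wave follows in the 2-cell embryo, where some genes are transcribed only briefly, among them genes of the Obox, Prame-like and other germline families.

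Values are linear intensities, one per probe set (a set of short probes for one transcript), on arrays that the authors had scaled to a common trimmed mean. Differences are in log2(value + 20), which understates changes of dim probe sets, and ± is the SD over 4 arrays for levels and the SE for differences. Of 22511 probe sets other than controls, 15234 were bright enough to test in limma, and these stand for 7490 named genes. A call means an adjusted p under 0.05 (Benjamini-Hochberg over all 15234). Since the labels do not state that the 4 arrays of a stage came from separate embryo collections, their p-values speak of the scatter among these samples alone, part of which may be technical. Precision is limited by the number of arrays, and since arrays of whole embryos are scaled to one total, fewer cells of a type and less RNA per cell cannot be told apart. The control signal for 18S ribosomal RNA read 1578 to 2282.5 on the 2-cell arrays, against 398 to 850 in oocytes, 32272 to 42928.5 in 1-cell embryos, 2009.8 to 3808 in 8-cell embryos and 1931 to 3023 in blastocysts. Its part in the differences below was not tested.

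The 2-cell stage differed from the mean of the other stages in both directions. In all 1661 probe sets were higher (10.9% of those tested) and 1441 lower (9.46%), 942 and 622 of them by at least 2-fold. A difference from the mean of the others is not by itself a peak. Of the 1661 higher probe sets, 935 had their highest mean at the 2-cell stage, 129 in oocytes, 325 in 1-cell embryos, 208 in 8-cell embryos and 64 in blastocysts. Of the 1441 lower ones, 873 had their lowest mean at the 2-cell stage. Above every one of the other stages were 143 probe sets (0.939% of those tested, from the largest of the 4 one-sided p-values), 125 of them by at least 2-fold and 51 by at least 4-fold over the nearest stage. Below every other stage were 39 (0.256%), 31 by at least 2-fold and 2 by at least 4-fold. In 142 of the 143 and in 36 of the 39 the 4 2-cell arrays did not overlap any of the 16 other arrays. For 14 of the 143 this followed from the brightness filter, which they passed only through their 2-cell arrays. For the rest, a call against every other stage by itself favours lack of overlap, so these counts are no further evidence. The median distance to the nearest other stage was 1.74 log2 units among the 143 and -1.17 among the 39, while the median difference of all probe sets tested was 0.02.

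The brightest 2-cell probe sets had more members in common with the brightest of oocytes and 1-cell embryos than with those of 8-cell embryos and blastocysts. Brightness differs between probe sets for reasons other than transcript number, so no ranking of transcripts follows from it. Among the 100 brightest, 42 were also among the 100 brightest in oocytes, 47 among those of 1-cell embryos, 32 among those of 8-cell embryos and 24 among those of blastocysts, while 28 were in no other stage's 100 and 9 were in all 5. The 100 brightest held 16 ± 1.44% of the summed intensity on 2-cell arrays (SD, n = 4), against 19.9 ± 1.27% in oocytes, 20.3 ± 1.26% in 1-cell embryos, 19.7 ± 0.99% in 8-cell embryos and 17.4 ± 1.60% in blastocysts. Of these 100 probe sets 77 were higher than the mean of the other stages, 3 were lower and 19 were above every other stage, where over all probe sets tested the shares were 10.9%, 9.46% and 0.939%. The 100 were chosen for their 2-cell level, which by itself favours higher calls, so nothing is read from these counts.

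Several of the 12 brightest named genes are products of the oocyte that stood far lower in the 8-cell embryo. Oosp3, of a family of oocyte-secreted proteins, read 28896, 18167.5, 8723 and 15024 in 2-cell replicates 1 to 4, against means of 26313 ± 3606 in oocytes, 34275 ± 4451 in 1-cell embryos, 443 ± 37.8 in 8-cell embryos and 283 ± 68.8 in blastocysts. Replicate 1 overlapped the oocyte arrays and replicate 3 lay far below them, and the level at this stage was 2.29 ± 0.20 log2 units over the mean of the others (adjusted p = 3.18e-09). Obox5, an oocyte homeobox gene, read 17875, 9339, 4554 and 8709.7 and was 1.87 ± 0.23 higher (adjusted p = 9.27e-07), with means of 14740.3 ± 1912, 27276 ± 5201, 293 ± 46.4 and 301 ± 125 in oocytes, 1-cell embryos, 8-cell embryos and blastocysts. Gyg, which makes the protein primer of glycogen, read 14666.5, 9182, 7509 and 7680.0. It stood at 17601 ± 2059 in oocytes, 329.6 ± 93.4 in 8-cell embryos and 1322.1 ± 299.7 in blastocysts. It was 1.45 ± 0.18 higher (adjusted p = 8.48e-07), a call lost when the 8-cell stage was left out of the mean (adjusted p = 0.22). In all 3 genes replicate 1 was the highest of the 2-cell arrays, and the means had fallen below both earlier stages.

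Other maternal transcripts were still at or near their oocyte level. Wee2, a kinase that holds the oocyte in meiotic arrest by restraining Cdk1, read 15479.8, 11464, 10458 and 9539 at the 2-cell stage, against 10036 ± 1262 in oocytes, 8774 ± 594 in 1-cell embryos, 106 ± 41.2 in 8-cell embryos and 28.4 ± 19.9 in blastocysts (3.79 ± 0.18 log2 units over the mean of the others, adjusted p = 9.23e-14). Nlrp4f, of the NLR proteins of oocytes, read 15242, 15258, 11154 and 11676.5, and its means were 11536 ± 2471 in oocytes and 138 ± 30.5 in 8-cell embryos. Klhl8, a Kelch adaptor of ubiquitin ligases, read 11519, 9882, 8559.7 and 9259.5, with 8643 ± 491 in oocytes and 226 ± 127 in 8-cell embryos. For these 3 genes every 2-cell array lay far above all 8-cell and blastocyst arrays.

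Of the 12, only Klf17, a Krüppel-like transcription factor, was above every other stage. Its 2-cell arrays read 12077.5, 10692, 11385 and 7514, against 4929.8 ± 704 in oocytes, 5869 ± 952 in 1-cell embryos, 2182 ± 139 in 8-cell embryos and 94.1 ± 38.9 in blastocysts, so all 4 lay above the highest other array at 6798 (0.82 log2 units over the 1-cell stage, adjusted p = 0.0235). This call was lost without 1-cell replicate 1 (adjusted p = 0.0514) or 2 (adjusted p = 0.126), without 2-cell replicate 1 (adjusted p = 0.102), 2 (adjusted p = 0.0783) or 3 (adjusted p = 0.0914), and without the intensity trend (adjusted p = 0.0794). The remaining 5 gave signal at all stages. Cdca8, the borealin subunit of the chromosomal passenger complex, read 18548, 16845, 20231 and 15189.9 on 2-cell arrays and did not pass the test against the mean of the others (0.46 ± 0.17, adjusted p = 0.0617). It was called higher under 7 of the alternatives, most of all with quantile normalization (1.08, adjusted p = 5.32e-06). Dnaja2, a co-chaperone of Hsp70, read 12439, 11259.6, 10646 and 8493 and was slightly higher (0.43 ± 0.13, adjusted p = 0.0236), a call that was lost without 2-cell replicate 1, 2 or 3 (adjusted p = 0.104, 0.0872 and 0.0569) and without the 1-cell stage (adjusted p = 0.132). Ywhaq, a 14-3-3 protein, Sf1, which recognises the intron branch point, and Lsm14a, of the RNA granules that hold repressed transcripts, did not pass the test against the mean of the others, at differences of 0.32 ± 0.16, -0.16 ± 0.20 and 0.44 ± 0.18 log2 units (adjusted p = 0.2, 0.646 and 0.0865). Ywhaq was called higher with quantile normalization (0.74, adjusted p = 0.00172), without the 8-cell stage (0.68, adjusted p = 0.00424) and without the blastocyst stage (0.56, adjusted p = 0.0211), and stood at -0.02 without the 1-cell stage. Lsm14a was called higher with quantile normalization (0.60, adjusted p = 0.00541), without the oocyte stage (0.72, adjusted p = 0.00503) and without the 1-cell stage (0.96, adjusted p = 0.000305), and stood at -0.20 without the 8-cell stage. Sf1 was not called under any alternative and its sign turned under 3 of them.

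**Figure D1:**
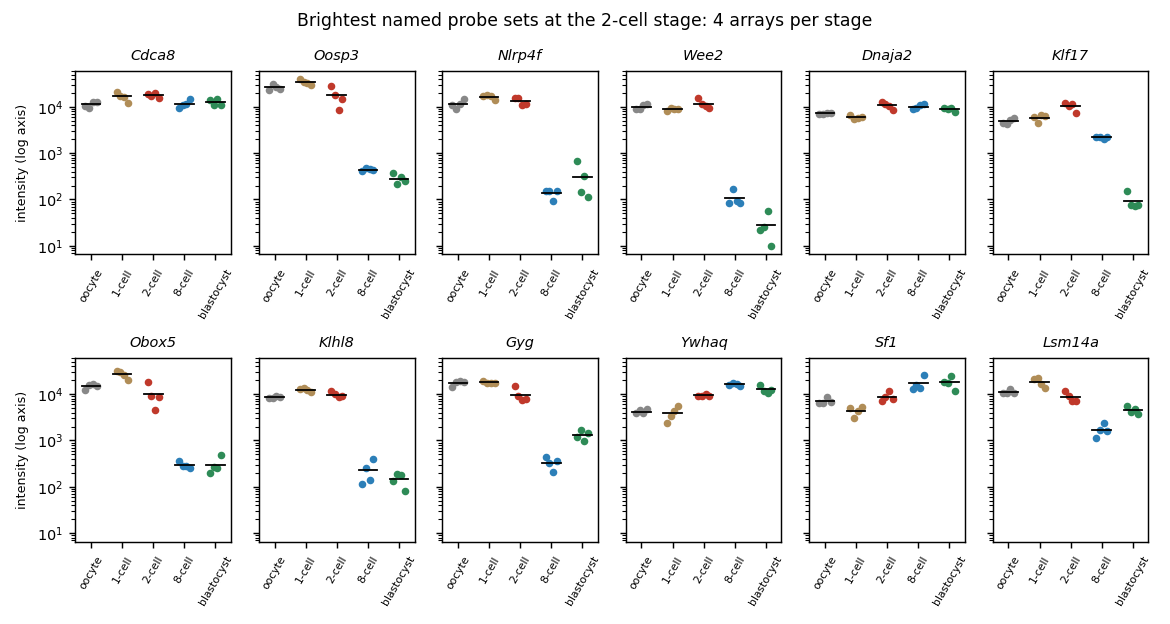
Intensity (log axis) of the 12 brightest named probe sets at the 2-cell stage, with 1 point per array, 4 arrays per stage in the order of development, and a bar at the mean. Wee2, Nlrp4f, Klhl8 and Oosp3 stay high through the 2-cell stage and are low at the 8-cell stage, whereas Klf17 alone has all its 2-cell arrays above all other arrays.

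The sharpest 2-cell transcripts with a gene name include Prame-like, RING finger and zinc finger genes, of which Pramel18 alone was below the table median of 82.6 on all 16 other arrays. Pramel18, one of the Prame-like genes known from germ cells and cleavage embryos, read 1888.5, 1357, 919 and 1091 in 2-cell replicates 1 to 4 and at most 45.1 on the 16 other arrays. It was 5.34 ± 0.26 log2 units above the mean of the others (adjusted p = 9.39e-14) and 4.77 above the nearest stage (adjusted p = 3.46e-10). The groups did not overlap, which was fixed in advance, since Pramel18 passed the brightness filter only through its 2-cell arrays. Rfpl4b, a Ret finger protein-like gene, read 1786, 1881.5, 1068 and 1462 and at most 193 elsewhere (4.01 over the nearest stage, adjusted p = 2.84e-06). Speer4cos, a transcript named after the Speer gene family, read 1552, 1167.5, 761 and 1128.5 and at most 82.7 elsewhere (3.73, adjusted p = 8.28e-08). In each of these 3 genes the lowest 2-cell array, replicate 3, lay far above the highest array of any other stage.

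A further 6 of the 14 encode zinc finger, forkhead, chromatin or RNA polymerase II kinase proteins. Zfp647, a zinc finger gene, read 1220.5, 1479, 1455 and 1157 in the 2-cell arrays and at most 171 elsewhere (3.04 over the nearest stage, adjusted p = 4.76e-07). Foxj3, a forkhead factor, read 1360.0, 1350.4, 943 and 1264 and at most 180.2 (2.85, adjusted p = 3.1e-08), and Ikzf5, an Ikaros-family zinc finger, read 869, 709, 697 and 895 and at most 206 (2.46, adjusted p = 2.21e-05). Atf7ip2, a relative of the partner of the H3K9 methyltransferase Setdb1, read 1298, 783, 853 and 774, with replicate 1 apart from the rest, and at most 249 elsewhere (2.50, adjusted p = 0.000596). Kansl1, a subunit of the NSL histone acetyltransferase complex, read 1056, 1194, 1139 and 789 and at most 111 (3.78, adjusted p = 2.46e-07). Cdk13, a kinase of the RNA polymerase II tail, read 630.4, 1061, 1030.3 and 876 and at most 192 (3.42, adjusted p = 0.000114). As the choice of the 14 required, all 4 arrays of each of these genes lay above the 16 others. The nearest other stage was the oocyte for Foxj3, the 8-cell stage for Zfp647 and Atf7ip2 and the blastocyst for Kansl1, Cdk13 and Ikzf5.

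Among the others, Utp14b, a retrogene-encoded factor of small ribosomal subunit assembly, read 5411, 5066, 6402 and 5806.5 in the 2-cell arrays, against 446 ± 31.4 in oocytes, 419 ± 85.3 in 1-cell embryos, 920.1 ± 282 in 8-cell embryos and 489 ± 124 in blastocysts (2.65 over the nearest stage, adjusted p = 4.35e-09). Exoc3l2, an exocyst-like gene, read 1827, 1858, 2378 and 2513 and at most 295 elsewhere, and G2e3, a ubiquitin ligase of the cell cycle, read 1259.8, 1052, 853 and 1472 and at most 210.2. Dim at the 2-cell stage too were Dcc, a netrin receptor of neurons, with 196, 199.7, 117 and 133 and at most 21.1 elsewhere, and Ppp1r2-ps7, a pseudogene of a phosphatase inhibitor, with 328, 219, 115 and 177 and at most 37.5. Over their nearest stages these 4 were 2.94, 2.63, 2.41 and 2.54 log2 units higher (adjusted p = 8.36e-08, 1.16e-07, 1.08e-05 and 0.000133).

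**Figure D2:**
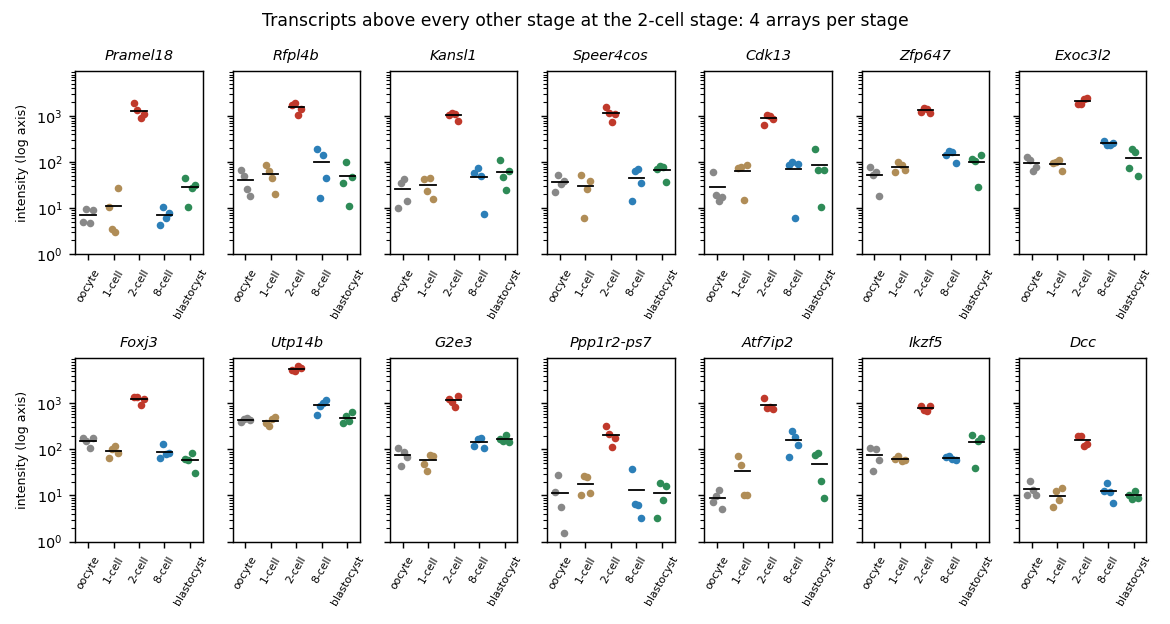
Intensity (log axis) of the 14 named probe sets farthest above every other stage, with 1 point per array, 4 arrays per stage in the order of development, and a bar at the mean. The 14 were picked only among probe sets with all 2-cell arrays above all 16 others. The highest other array lay between 21.1 for Dcc and 1212.5 for Utp14b.

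The promoters of these transcripts did not share one base composition. The RefSeq table of mouse promoters (GRCm38.p6, 250 bases before to 50 after each annotated start) holds 11 promoters for 9 of the 14 genes, and these starts need not be the ones used in the embryo. Their CpG dinucleotides numbered between 2 (Rfpl4b) and 52 (Cdk13), and 4 promoters that cover most of that range are shown: Rfpl4b with 2, Atf7ip2 with 17, Utp14b with 40 and Foxj3 with 42. Capitals mark GGGCGG (the GC box) or CCAAT on either strand, so that they also appear as CCGCCC and ATTGG.
Rfpl4b (chr10:38821730-38822029, minus strand): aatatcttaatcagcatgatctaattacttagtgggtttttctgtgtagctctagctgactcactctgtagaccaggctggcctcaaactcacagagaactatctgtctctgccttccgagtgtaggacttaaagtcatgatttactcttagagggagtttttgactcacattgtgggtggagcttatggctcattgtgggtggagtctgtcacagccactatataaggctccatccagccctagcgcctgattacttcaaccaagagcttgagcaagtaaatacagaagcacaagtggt
Foxj3 (chr4:119539411-119539710, plus strand): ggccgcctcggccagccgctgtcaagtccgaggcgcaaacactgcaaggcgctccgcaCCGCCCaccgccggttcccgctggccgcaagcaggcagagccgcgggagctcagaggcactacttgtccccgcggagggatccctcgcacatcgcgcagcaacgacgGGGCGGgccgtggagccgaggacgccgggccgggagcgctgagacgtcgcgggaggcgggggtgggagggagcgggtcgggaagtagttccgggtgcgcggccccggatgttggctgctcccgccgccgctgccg
Utp14b (chr1:78658190-78658489, plus strand): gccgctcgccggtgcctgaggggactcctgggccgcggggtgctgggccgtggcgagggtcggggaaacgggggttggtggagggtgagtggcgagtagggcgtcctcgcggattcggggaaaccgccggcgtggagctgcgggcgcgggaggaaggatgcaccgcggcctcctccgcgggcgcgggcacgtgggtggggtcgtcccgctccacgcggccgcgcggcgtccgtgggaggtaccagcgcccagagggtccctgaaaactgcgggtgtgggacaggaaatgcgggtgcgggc
Atf7ip2 (chr16:10192656-10192955, plus strand): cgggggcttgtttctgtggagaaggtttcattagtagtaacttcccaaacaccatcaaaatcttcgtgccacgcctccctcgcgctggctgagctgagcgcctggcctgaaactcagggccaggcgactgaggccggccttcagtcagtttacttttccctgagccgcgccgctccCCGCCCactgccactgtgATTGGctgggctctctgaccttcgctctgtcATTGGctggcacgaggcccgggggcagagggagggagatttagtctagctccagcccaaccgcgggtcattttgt
GGGCGG was found in 72.7% of the 11 promoters, in 63.3% of 98 promoters of all genes above every other stage, in 53.8% of 7472 promoters of measured genes and in 35.7% of all 32851 in the table. CCAAT was in 18.2% of the 11, 37.8% of the 98 and 37.1% of those of measured genes. TATAAA was in none of the 11, in 5.10% of the 98 and in 8.40% of those of measured genes, and GGATTA, a homeobox core, in none of the 11, in 7.14% and in 6.16%. Kansl1 has 3 of the 11 promoters, 2 of which overlap. The median number of CpG dinucleotides was 31 in the 11, 18 in the 98 and 17 in the promoters of measured genes. A match is a description of these letters and not of a factor's binding.

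Predicted genes and clone-named transcripts, which the naming rule left out, were among the farthest above the other stages, and 4 are given here although chosen after their values were seen. Gm12789 read 12932, 12972, 9216 and 10373 in the 2-cell arrays and at most 168 elsewhere, 6.30 log2 units over the nearest stage (adjusted p = 1.57e-11). Gm11544 read 16082, 17226, 10534 and 12229, against 422 ± 74.2 in oocytes, 389 ± 69.0 in 1-cell embryos, 1293.5 ± 266 in 8-cell embryos and 143 ± 53.7 in blastocysts (3.41 over the nearest stage, adjusted p = 9.94e-11). AA414992 read 2921, 3843, 2682 and 2909 and at most 144 elsewhere (4.54, adjusted p = 2.05e-10), and Gm4850 read 4554, 3141, 2067 and 2339 and at most 222 (4.37, adjusted p = 4.85e-08). In all, 30 of the 143 probe sets carried no single gene symbol, and 106 named genes were represented among the rest.

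The 8-cell stage was the nearest other stage for 83 of the 143, the oocyte for 25, the blastocyst for 20 and the 1-cell stage for 15. Only 14 of the 143 were below the table median of 82.6 on all 16 other arrays. These passed the brightness filter, set at the same level, only through their 4 2-cell arrays. Their lack of overlap was fixed by the filter, and their calls partly follow from it. Of the 14, 9 had 1 symbol. Besides Pramel18, Ppp1r2-ps7 and Dcc these were Usp50, Ajap1, Trabd2b, Zmynd12, Meioc and Piezo2, with 2-cell means between 145 for Usp50 and 255 for Ajap1, all named after their values were seen. Meioc is a meiotic RNA-binding partner and Piezo2 a mechanosensitive channel. For most of the 143, then, at least 1 of the 16 other arrays reached the table median, which is not a limit of detection. Some of these were dim by every other stage's mean, such as Kansl1 with 25.9 to 62.5 and Speer4cos with 30.6 to 67.7.

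These calls belong to a probe set and not always to every probe set of its gene. Of the named genes above every other stage, 50 had another tested probe set, and in 6 of them at least 2 probe sets were above every other stage. The genes' 78 other probe sets that were not above every stage included 27 that were higher than the mean of the other stages and 3 that were lower. Dcc and Atf7ip2 had a second probe set that was also called. For Kansl1, Cdk13, Exoc3l2, G2e3 and Ikzf5 no other probe set was called higher or lower, and the other Kansl1 probe set averaged 231 at the 2-cell stage, against 325 in 8-cell embryos and 321 in blastocysts. Which transcript form each of these probe sets reads was not tested.

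The stage calls were read again in 2-cell arrays left out of the fit, though the brightness filter had used all 20 arrays. A probe set under the filter level on all 16 other arrays had passed only through its 2-cell arrays. For such probe sets this reading was fixed in advance. When each 2-cell array was left out in turn, 124 to 127 probe sets were above every other stage, and 122 or 123 of them lay above all 16 other arrays in the array left out, against 6.13% to 7.08% of all probe sets tested. Of 29 to 36 probe sets below every other stage, 29 to 32 lay below all 16 in the array left out, against 4.63% to 6.11% of all.

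Transcripts lowest at the 2-cell stage were fewer and the dips shallower. Zfp511, a zinc finger gene, read 16, 8.1, 6.7 and 6.7 in the 2-cell arrays and at least 88.3 on the 16 others, a difference of -2.67 ± 0.19 log2 units from their mean (adjusted p = 1.86e-10) and of -2.27 from the nearest stage (adjusted p = 2.23e-05). Its 2 other probe sets were also lower. Aasdhppt, which attaches the phosphopantetheine arm to acyl carrier proteins, read 94, 26.4, 23.1 and 91.7 and at least 219.9 elsewhere (-2.15 from the nearest stage, adjusted p = 0.000101). Ints6, of the Integrator complex that processes small nuclear RNAs, read 61.8, 65.3, 53.4 and 54.3 and at least 152 (-1.70, adjusted p = 0.00201). On the probe sets given here no 2-cell array overlapped an array of another stage, which was a condition of their choice. Of 3 other Aasdhppt probe sets 2 were called lower than the mean of the others, but all 3 had a lower mean in 1-cell embryos. The other Ints6 probe set was not called (adjusted p = 0.841) and averaged 120 at the 2-cell stage, against 68.9 in 1-cell embryos.

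Tsfm, Gtpbp10 and Abhd11, of the 8 named dips, encode mitochondrial proteins and are described with Ndufc2 and Mrpl9 of the lists, a grouping made after their values were seen and not tested. Tsfm, the mitochondrial elongation factor Ts, read 29.5, 36.3, 84.5 and 180.1 in the 2-cell arrays and at least 241.5 elsewhere (-1.93 from the nearest stage, adjusted p = 0.00183), while its other probe set was not called (0.27 from the mean of the others, adjusted p = 0.421). Gtpbp10, a GTPase of mitochondrial ribosome assembly, read 158, 88.1, 96.1 and 119 and at least 335 (-1.78, adjusted p = 8.26e-05), although its other probe set was called higher. Abhd11, a mitochondrial hydrolase, read 158.5, 156.5, 118 and 214 and at least 407 (-1.40, adjusted p = 0.000436). Ndufc2, a subunit of respiratory complex I, read 357.5, 204.5, 268.5 and 199.8 and at least 377 (-1.13, adjusted p = 0.00248), and its other probe set was not called (0.73 from the mean of the others, adjusted p = 0.141). Mrpl9, of the mitochondrial ribosome, read 684.5, 507, 578 and 659.5 and at least 1134 (-1.35, adjusted p = 0.0016).

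Mzt1, of the gamma-tubulin complexes, and Selenoi, which makes phosphatidylethanolamine, were also below every other stage, at -1.38 and -1.38 log2 units from the nearest one (adjusted p = 0.0196 and 0.0016). The Mzt1 call was lost without 2-cell replicate 1 (adjusted p = 0.0707) or 4 (adjusted p = 0.109), without blastocyst replicate 1 (adjusted p = 0.0974) or 4 (adjusted p = 0.072), and without the intensity trend (adjusted p = 0.0768). Of 3 other Mzt1 probe sets 1 was called lower. Another averaged 405 at the 2-cell stage, against 231 in 8-cell embryos and 108 in blastocysts, and was not called. Of 2 other Selenoi probe sets 1 was called lower and 1 higher.

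Beyond the stage's own extremes, the largest positive differences were of genes that the 2-cell embryo shared with a neighbouring stage, with oocytes and 1-cell embryos for Wee2 (above) and with 8-cell embryos for the others. Obox6, a homeobox gene, read 7923, 6919.9, 8849 and 7618 in the 2-cell arrays, against 35.1 ± 8.29 in oocytes, 40.9 ± 14.3 in 1-cell embryos, 17576 ± 2807 in 8-cell embryos and a mean of 290.5 in blastocysts (4.42 ± 0.14 over the mean of the others, adjusted p = 3.71e-17). Ppm1a, a protein phosphatase, read 2173, 3195, 3352 and 2217 with 2615 ± 575 in 8-cell embryos, and Btbd18, known in mouse germ cells for the transcription of piRNA precursors, read 1647, 2057, 3112 and 3252 with 1854 ± 350.1. Ifi35, an interferon-induced gene, read 2253, 2506, 3044 and 2558 with 1884 ± 435, and Zfp775, a zinc finger gene, 843, 1285, 1219 and 1145 with 396 ± 179.7. Of these 4 only Zfp775 had no 2-cell array within the range of the 8-cell arrays, without passing the test against that stage (adjusted p = 0.0538). Over the mean of the others they were 3.91, 3.63, 3.49 and 3.42 log2 units higher (adjusted p = 1.73e-14, 8.43e-11, 2.35e-10 and 2e-08).

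The largest negative differences were of transcripts already low, not yet high, or between 2 phases. Bub1b, a spindle checkpoint kinase, and Pabpn1l, an oocyte poly(A)-binding protein that takes part in maternal RNA decay, were of the first kind. Bub1b read 598, 525, 966 and 432 in the 2-cell arrays, against 16916 ± 2179 in oocytes and 17965 ± 4907 in 1-cell embryos, and Pabpn1l read 23.8, 10.4, 33.6 and 25.1, against 4518 ± 800.5 and 1624 ± 379.8. Vnn1, a pantetheinase, was of the second kind, with 78.5, 5.8, 6.3 and 14.5 in the 2-cell arrays, 4879 ± 933 in 8-cell embryos and 2001 ± 588 in blastocysts. The differences from the mean of the others were -2.92, -2.81 and -3.06 log2 units (adjusted p = 4.24e-11, 1.04e-11 and 6.52e-09).

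A dip between an earlier and a later phase was found for the other 3. Khdc3, of the subcortical maternal complex, read 239, 301, 679.9 and 364 in the 2-cell arrays, against 2305 ± 358 in oocytes, 575 ± 179.9 in 1-cell embryos, 3707 ± 499.9 in 8-cell embryos and 20822 ± 2274 in blastocysts (-3.04 ± 0.19, adjusted p = 9.64e-12). Rnaseh2b, a subunit of ribonuclease H2, read 211, 14, 36.2 and 34.9, with 587 ± 24.6 in oocytes, 152.5 ± 84.2 in 1-cell embryos and 2280.2 ± 324 in 8-cell embryos (-3.57 ± 0.36, adjusted p = 3.9e-08). Mtln, a mitochondrial micropeptide, read 21, 22.3, 56.3 and 17.8, with 671 ± 50.2, 87.5 ± 50.3 and 338 ± 60.3 (-3.08 ± 0.24, adjusted p = 4.73e-10). All 3 were below the oocyte and the 8-cell stage on all 4 arrays and not called below the 1-cell stage.

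Gene lists were read with 1 probe set per gene, the brightest, and with the share over all 7490 genes as the background, of which 13.6% were higher, 12.6% lower, 1.13% above every other stage and 0.387% below every other stage. The median difference over all genes was 0.01. Only part of each list is on this array and bright enough, so the counts hold for the measured genes alone. The lists were drawn up with earlier results of these data known, so a count is no independent evidence of its list's direction. Of all 105 named probe sets, 46 had another tested probe set of their gene. For 23 of these another was called in the same direction, and for 3 in the opposite one.

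Of 15 measured genes of cleavage-stage activation, 9 were higher, 1 was lower and 5 passed neither way, with a median difference of 0.93, and 5 were above every other stage. These 5 were Pramel18, Rfpl4b, Klf17, Ubtfl1 and Ddit4l. The 9 higher genes include Obox5, which is also on the maternal list and whose 2-cell mean lay below those of oocytes and 1-cell embryos. Ubtfl1, which encodes an HMG-box protein of cleavage embryos, read 3767, 4857, 5120.4 and 4483 in the 2-cell arrays, against 27.1 ± 11.8 in oocytes, 30.9 ± 28.2 in 1-cell embryos, 1376 ± 239.8 in 8-cell embryos and 213 ± 117 in blastocysts (1.72 over the nearest stage, adjusted p = 0.00228), a call that was lost with a pseudocount of 5 (adjusted p = 0.0639). Ddit4l, an inhibitor of mTOR signalling, read 1908, 1622, 1184.5 and 1396 and at most 768 elsewhere (1.05, adjusted p = 0.00259, named after its value was seen). The lower gene was Patl2, an oocyte regulator of translation (-0.87). Duxf3, of the Dux family of early activators, had a 2-cell mean of 79.3, which is under the table median of 82.6, and did not differ by the test (0.12, adjusted p = 0.82).

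Of 39 oocyte and maternal-effect genes, 19 were higher, 6 lower and 14 passed neither way, with a median of 0.56 and none above every other stage. Which stages form the mean sets these counts, and without the blastocyst they came to 11 higher and 15 lower. The summed intensity of the list was 95551 to 190756 on 2-cell arrays, 337383 to 416522 in oocytes, 329436 to 378251 in 1-cell embryos, 16535 to 17174 in 8-cell embryos and 28654 to 32141 in blastocysts. The 2-cell arrays lay between the earlier and the later stages and overlapped none of them. Bmp15, an oocyte growth factor, read 2977, 2322.5, 1525 and 2159 at the 2-cell stage, with 2793 ± 305 in oocytes and 45.1 ± 53.6 in 8-cell embryos. Zar1, a maternal-effect gene, read 1371, 930, 1506 and 951, with 13194 ± 845 in oocytes and 465 ± 97.4 in 8-cell embryos, and its lower call (-0.98 ± 0.15, adjusted p = 1.48e-05) was lost without the oocyte stage (adjusted p = 0.548) or the 1-cell stage (adjusted p = 0.695). Both were named after their values were seen, and 3 of the 4 2-cell arrays for Bmp15 and all for Zar1 lay below every oocyte array. The other Bmp15 probe set averaged 322 at the 2-cell stage, against 843 in oocytes, 1344 in 1-cell embryos and 96.2 in 8-cell embryos, and was not called (adjusted p = 0.878).

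The transcription machinery of RNA polymerase II was more often higher than lower. Of 39 measured general factors, Mediator subunits and elongation factors, 13 were higher, 4 lower and 22 passed neither way, with a median of 0.09. Med13, of the kinase module of Mediator, read 978, 951, 1056 and 1118 in the 2-cell arrays and at most 331 elsewhere (2.35 over the nearest stage, adjusted p = 7.95e-07), and of its 4 other probe sets 1 was called higher. Taf3, a subunit of TFIID, read 1220.5, 1027, 906 and 1040.4, with 1169 ± 346 in oocytes and 100.2 ± 34.4 in 8-cell embryos. Taf9b, another, read 847, 524, 429.6 and 647, with 1796 ± 189 and 7.62 ± 3.11, so that neither exceeded its oocyte mean on the 2-cell arrays as a whole (1.70 and 1.49, adjusted p = 2.95e-07 and 4.9e-08).

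Ribosome biogenesis was mixed, with 14 higher, 8 lower and 37 of 59 passing neither way and a median of 0.02. Without the oocyte stage the higher count was 8. Utp23, of the small subunit processome, read 1308, 1502, 2090.4 and 2199 in the 2-cell arrays, with 34.0 ± 16.6 in 1-cell and 1285 ± 224 in 8-cell embryos (3.00 ± 0.22, adjusted p = 1.4e-10). Nob1, which trims the small subunit RNA, read 1540.4, 1633, 2049.7 and 2025, with 194 ± 71.0 and 1325 ± 370.5 (1.99 ± 0.18, adjusted p = 6.38e-09). Riok2, a kinase of the same pathway named after its value was seen, was below every other stage and differed from the mean of the others by -1.49 log2 units.

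Of 21 translation factors, 5 were higher, 4 lower and 12 passed neither way (median 0.07). Gigyf2, a repressor of translation initiation, read 961, 1121, 1521 and 1090.4 in the 2-cell arrays, with 8.4 ± 3.51 in 1-cell and 2133 ± 78.1 in 8-cell embryos (3.10 ± 0.15, adjusted p = 1.38e-13). Eif6, an anti-association factor of the large subunit, read 1714, 851, 1104 and 1306 and at most 763 elsewhere (1.27 ± 0.17, adjusted p = 4.54e-06), and Eif2b3, of the eIF2 exchange factor, read 419.5, 402, 588 and 589 and was lower, with 2 arrays just inside the range of the others, which began at 586.5 (-0.98 ± 0.15, adjusted p = 2.07e-05).

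Splicing, chaperone and proteasome genes were lower more often than higher. Of 51 splicing genes, 7 were higher, 13 lower and 31 passed neither way (median -0.11), with Snrnp200, the U5 helicase, at 532, 607, 675 and 803 in the 2-cell arrays and at least 871 elsewhere (-1.21 ± 0.14, adjusted p = 2.96e-07). Ppil3, a spliceosomal isomerase, differed by -1.50 ± 0.16, and Snrnp35, of the minor spliceosome, by 2.04 ± 0.19 (adjusted p = 1.28e-07 and 1.18e-08). Of 29 chaperone genes, 1 was higher, 8 lower and 20 passed neither way (median -0.11). Dnaja1, an Hsp70 co-chaperone, read 779, 561.5, 662 and 857 in the 2-cell arrays and at least 930.3 elsewhere (-1.88 ± 0.13, adjusted p = 9.46e-11), and the prefoldin subunits Pfdn4 and Pfdn5 were -1.74 and -0.91 from the mean of the others (adjusted p = 2.73e-08 and 3.59e-05). Without probe sets of the x_at and s_at types, which can match several genes, 5 of 24 chaperone genes were lower, and without the blastocyst stage 5 of 29 were. Of 10 proteasome genes none was higher, 2 were lower and 8 passed neither way (median -0.46). These 2 were Psma1, of the core ring, with 1276, 1180.1, 1252 and 902 in the 2-cell arrays and 6274 ± 554 in 8-cell embryos, and Psmc5, an ATPase of the cap, with 280.3, 486, 313 and 404 and 2226.5 ± 607 (-1.74 and -2.16, adjusted p = 3.45e-10 and 1.56e-09).

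Of 23 genes of the mitochondrial ribosome, 1 was higher, 7 lower and 15 passed neither way (median -0.29), and without x_at and s_at probe sets 3 of 17 were lower. Mrpl44 read 15.5, 16.8, 18.6 and 15.6 in the 2-cell arrays, with 277 ± 66.4 in 8-cell embryos, and Mrps27 read 182, 208, 43.4 and 98.6, touching the range of the others, which began at 207 (-2.10 and -1.76, adjusted p = 6.46e-06 and 2.33e-05). Of 21 genes of oxidative phosphorylation, 2 were higher, 4 lower and 15 passed neither way (median 0.00). Besides Ndufc2, Uqcrh of complex III differed by -1.63 ± 0.18 (adjusted p = 2.27e-07), and Sdhaf3, an assembly factor of complex II, by 1.12 ± 0.17 (adjusted p = 2.09e-05).

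Genes of RNA decay were lower in 14 cases, higher in 4 and passed neither way in 19 of 37 (median -0.06). Dcp2, the decapping enzyme, read 285, 293, 268 and 333 in the 2-cell arrays, with 597 ± 162 in oocytes and a mean of 3030.0 in blastocysts (-1.48 ± 0.14, adjusted p = 1.61e-08). The other Dcp2 probe set averaged 351 at the 2-cell stage, against 214 in 8-cell embryos, and was not called (adjusted p = 0.943). Tent4a, a noncanonical poly(A) polymerase, read 4022, 3224.5, 2978.5 and 3644, with 6304 ± 529 in 1-cell and 194 ± 34.4 in 8-cell embryos (1.62 ± 0.13, adjusted p = 1.64e-09). Without the 8-cell stage the lower count was 9.

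Of 89 genes of histone modification, remodelling and DNA methylation, 16 were higher, 14 lower and 59 passed neither way (median 0.10). Pcgf5, of a Polycomb complex, read 6203, 6108, 5211 and 3798 in the 2-cell arrays, with 298 ± 93.6 in 1-cell and 5031 ± 655 in 8-cell embryos (2.18 ± 0.18, adjusted p = 1.17e-09). Its 2 other probe sets were not called and had their highest means in 8-cell embryos. Usp16, which removes ubiquitin from histone H2A, read 876, 919, 874 and 855 and at most 463 elsewhere, and was above every other stage (1.02, adjusted p = 8.88e-05). In the cell cycle, 12 of 53 genes of mitosis and meiosis were higher and 10 lower (median 0.05). Cdc25c, the phosphatase that activates Cdk1, was above every other stage, with 956, 1683, 2017 and 2060.4 in the 2-cell arrays and at most 1059.7 elsewhere (0.97, adjusted p = 0.0483, an x_at probe set named after its value was seen, and 1 of the 4 arrays lay within the 8-cell range). The Cdc25c call rested close to the threshold and was lost under 18 of the alternatives, among them quantile normalization (adjusted p = 0.217), without 2-cell replicate 2 (adjusted p = 0.137), 3 (adjusted p = 0.215) or 4 (adjusted p = 0.225) and without 8-cell replicate 2 (adjusted p = 0.0991), 3 (adjusted p = 0.145) or 4 (adjusted p = 0.187). Ccne1, cyclin E1, read 4334, 4173, 3839 and 5751, with 319.8 ± 75.9 in 1-cell and 4793 ± 413 in 8-cell embryos (2.20 ± 0.15, adjusted p = 9.05e-11). Of 47 genes of replication and repair, 5 were higher and 8 lower (median 0.12), and Chek1, the replication checkpoint kinase, was below every other stage with 115, 33.2, 50.6 and 86.9, against 2177 ± 599.6 in oocytes, 1676 ± 152 in 1-cell embryos, 204 ± 43.2 in 8-cell embryos and 203 ± 79.2 in blastocysts, where 1 array overlapped (-1.30 from the nearest stage, adjusted p = 0.0195). The Chek1 call was lost under 8 of the alternatives, which were a pseudocount of 80 (adjusted p = 0.0603), no intensity trend (adjusted p = 0.0708), leaving out 2-cell replicate 2 (adjusted p = 0.112) or 3 (adjusted p = 0.0759), leaving out 8-cell replicate 3 (adjusted p = 0.0501) or 4 (adjusted p = 0.0586), and leaving out blastocyst replicate 1 (adjusted p = 0.0974) or 4 (adjusted p = 0.072). Mcm5, of the replicative helicase, was -1.40 ± 0.13 from the mean of the others (adjusted p = 1.95e-08).

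Of 29 genes of the nuclear pore and nuclear transport, 6 were higher, 4 lower and 19 passed neither way (median 0.17). Kpna7, an importin of oocytes and early embryos, read 2918, 1896, 923 and 1343.5 in the 2-cell arrays, with 5467.5 ± 476 in oocytes and 54.0 ± 29.9 in 8-cell embryos. Nxt2, an mRNA export cofactor, read 328, 557, 159.6 and 491, with 145 ± 62.6 in 1-cell embryos and replicate 3 within the 1-cell range, and Nup214, of the cytoplasmic face of the pore, read 5898, 3973.5, 3710.5 and 4100.1, with 3945 ± 861 in oocytes and 909 ± 150.2 in 8-cell embryos. The adjusted p of these 3 was 4.3e-06, 1.1e-05 and 1.28e-06, and the Kpna7 call was lost without the blastocyst stage (adjusted p = 0.079).

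Most lineage markers of the blastocyst passed neither way. Of 16 trophectoderm and epithelial genes, 1 was higher, 5 lower and 10 passed neither way (median -0.41), and their summed level was 3629 to 4307.5 on 2-cell arrays, 5841.5 to 7655 in 8-cell embryos and 19975 to 25117 in blastocysts. Csta1, a protease inhibitor of epithelia, read 22.8, 1.7, 26.6 and 25.4 in the 2-cell arrays and averaged 3065 ± 648 in blastocysts, and Tead1, a Hippo pathway factor, read 209, 399, 361 and 389 and averaged 2878 ± 717 (-2.17 and -1.12, adjusted p = 5.55e-07 and 6.25e-05). Rab11fip1, of recycling endosomes, was 0.97 ± 0.19 higher (adjusted p = 0.000485). The Tead1 call was lost without the blastocyst stage (adjusted p = 0.0867) and that of Rab11fip1 without the 1-cell stage (adjusted p = 0.337). Of 25 genes of the inner cell mass, pluripotency and primitive endoderm, 3 were higher, 3 lower and 19 passed neither way (median -0.19). Their summed level was 15378 to 19882 on 2-cell arrays, 12169 to 14163 in oocytes and 14616.5 to 16319 in 1-cell embryos. It was 9867 to 11669.7 in 8-cell embryos and 9214 to 17217 in blastocysts. Klf17 alone gave 7514 to 12077.5 of the sum on 2-cell arrays, with means of 2182 in 8-cell embryos and 94.1 in blastocysts. The sum is therefore not read as a level of the list as a whole. L1td1, an RNA-binding protein of pluripotent cells, read 879, 935, 930 and 969.9 in the 2-cell arrays, with 24.8 ± 19.8 in 1-cell embryos, 409.9 ± 178 in 8-cell embryos and 6305 ± 3566 in blastocysts (1.95, adjusted p = 5.69e-06). Gata6, of the primitive endoderm, read 189.9, 44.1, 27.4 and 44.7 with replicate 1 apart, and its lower call (-1.29, adjusted p = 0.00757) was lost without 2-cell replicate 3 (adjusted p = 0.0599), without the 8-cell stage (adjusted p = 0.136) and without the blastocyst stage (adjusted p = 0.0781).

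Markers of other cells were mostly dim and few were called. Of 10 measured cumulus and granulosa genes, 1 was higher, 1 lower and 8 passed neither way (median -0.15), with a summed level of 3511 to 4222 on 2-cell arrays, 2977.5 to 4165 in oocytes, 2834 to 3918 in 1-cell embryos, 2469 to 2882 in 8-cell embryos and 1487 to 2191 in blastocysts. The higher gene was Amhr2, the receptor of anti-Müllerian hormone, which was above every other stage with 1850.0, 1794, 2402 and 2165 in the 2-cell arrays and at most 834.5 elsewhere (1.39, adjusted p = 5.52e-06), on an x_at probe set whose partner was called too. Amhr2 averaged 196 in oocytes and 167 in 1-cell embryos, so the summed 2-cell level of the list was in large part this 1 probe set. Cyp11a1, an enzyme of steroid synthesis, was lower at 82.5, 109.8, 83 and 20.2 (-0.88, adjusted p = 0.00863), a call lost without replicate 4 (adjusted p = 0.107). Of 13 sperm genes, with a summed level of 2066 to 2529.8 on 2-cell arrays and 1565 to 2877 elsewhere, 1 was higher (median 0.31). This was Oaz3 with 169, 200.4, 229 and 195 and at most 173 elsewhere (1.01, adjusted p = 0.0141), a call lost without replicate 3 (adjusted p = 0.0558). None of its 3 other probe sets was called. The measured blood and reproductive tract genes, Muc16 and Dcn, passed neither way. The part of these cells' RNA in the differences was not tested.

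**Figure D3:**
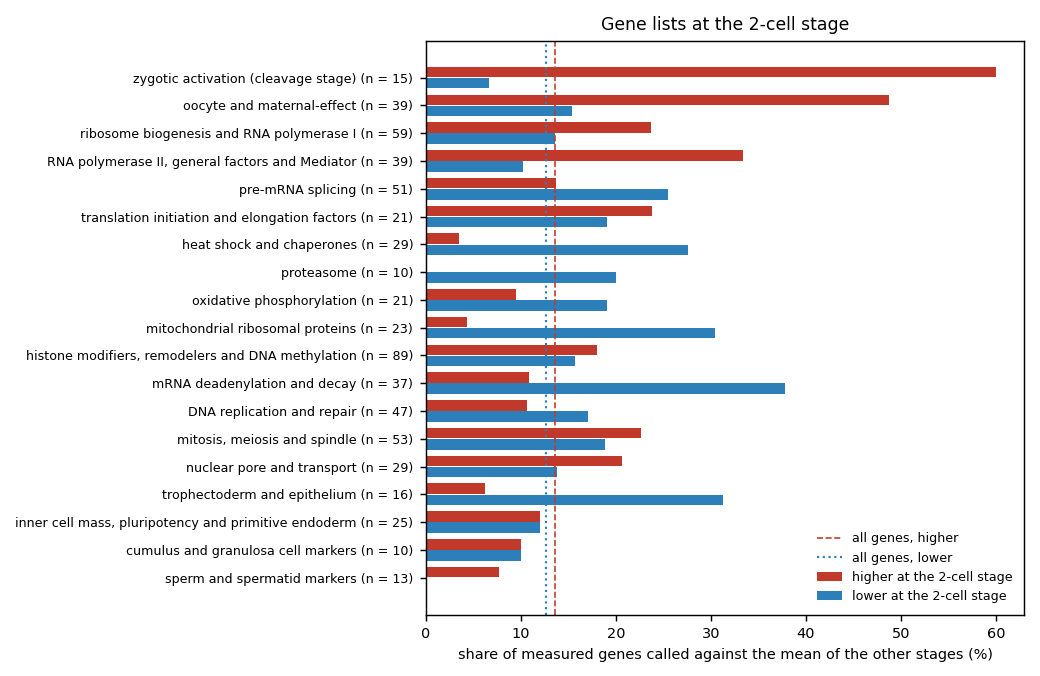
Share of the measured genes of each list that were higher (red) or lower (blue) at the 2-cell stage than the mean of the other stages, in percent, with the number measured in brackets and the shares over all 7490 genes as lines (13.6% higher, dashed, and 12.6% lower, dotted). Activation and maternal genes are the lists most often higher, and RNA decay genes the list most often lower.

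The 4 2-cell arrays were not equally far along the way from the 1-cell to the 8-cell stage. Position was read on probe sets chosen without any 2-cell array, those at least 2-fold different between 8-cell and 1-cell embryos in a fit of the 16 other arrays, 2736 rising (18% of those tested) and 2026 falling (13.3%), with 0 at the 1-cell mean and 1 at the 8-cell mean. The median position of the rising probe sets was 0.395, 0.504, 0.597 and 0.56 in 2-cell replicates 1 to 4, with a mean of 0.514 ± 0.088 (SD, n = 4). That of the falling probe sets was 0.265, 0.355, 0.443 and 0.392, with a mean of 0.363 ± 0.075. Both sets put replicate 1 nearest the 1-cell stage and replicate 3 nearest the 8-cell stage, and in every array the rising set was further along than the falling set. This gap was between 0.131 and 0.168, and between 0.028 and 0.079 with a pseudocount of 80. The SD over the 4 arrays was 0.035 and 0.026 in oocytes, 0.019 and 0.026 at the 1-cell stage, 0.02 and 0.011 at the 8-cell stage and 0.061 and 0.014 in blastocysts, for the rising and the falling set. All 8 values were below both of the 2-cell stage. The probe sets were chosen in a fit of those 16 arrays, which favours low spread among them, so the difference in spread partly follows from the choice.

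**Figure D4:**
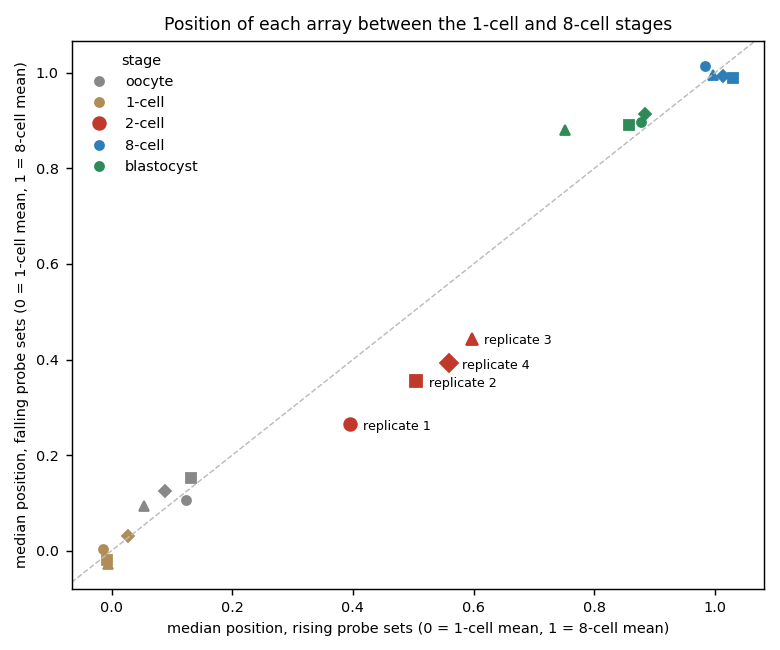
Median position of each array between the 1-cell mean (0) and the 8-cell mean (1), over probe sets that rise (horizontal axis) and fall (vertical axis) between these stages, with colours for stages, marker shapes for replicate numbers and a dashed line of equal position. The 2-cell arrays lie between 0.395 and 0.597 on the rising and between 0.265 and 0.443 on the falling axis, all below the line, while 1-cell and 8-cell arrays lie close to the ends by construction.

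Single probe sets were spread widely around these medians. By the mean of the 4 arrays, 26.8% of the rising probe sets stood below 0.25, 49.2% between 0.25 and 0.75 and 24.0% above 0.75, and 10.4% were past the 8-cell mean. Of the falling ones 36.6% stood below 0.25, 46.6% between and 16.8% above 0.75. The share past 0.5 was 40.5%, 50.3%, 58.8% and 54.5% of the rising set in replicates 1 to 4 and 29.5%, 36.7%, 44.4% and 39.4% of the falling set. Replicate 1 was the least advanced of the 4 arrays in 42.9% of rising and 53.2% of falling probe sets, and replicate 3 the most advanced in 37.1% and 41.7%. Among the probe sets not chosen, each array was the highest or the lowest in between 22.8% and 28.3%.

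The deviations of replicates 1 and 3 from the mean of the other 3 arrays ran along the same axis, in opposite directions. Across the 4762 chosen probe sets, which share libraries and are not independent, the correlation of an array's deviation with the 8-cell minus 1-cell difference was -0.47, -0.04, 0.40 and 0.17 in replicates 1 to 4, and over all 15234 probe sets it was -0.29, -0.03, 0.24 and 0.10. Over all 15234 probe sets replicate 1 correlated at a median of 0.754 with 1-cell and 0.552 with 8-cell arrays, and replicate 3 at 0.684 and 0.641. The 4 arrays had median intensities of 81.0, 87.3, 87.5 and 87.5, 18S signals of 2162.5, 1991, 1578 and 2282.5, and beta-actin 3'/5' log2 ratios of 2.36, 2.64, 2.07 and 2.24 in replicates 1 to 4. Their Gapdh 3'/5' log2 ratios, a sign of RNA quality, were 2.61, 2.39, 1.80 and 2.31, in the reverse order of the positions. Replicate 1 thus had the lowest median and the highest Gapdh ratio, and replicate 3 the lowest 18S signal and the lowest of both ratios. The Gapdh ratio was 1.86 to 2.45 on 1-cell arrays and 0.68 to 1.57 on 8-cell arrays. The part of these in the positions was not tested.

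Of the lists with at least 5 rising genes, the 7 of cleavage-stage activation were the most advanced in replicates 1 to 3. These rising genes stood at 0.862, 0.892, 1.01 and 0.86 in replicates 1 to 4. The 4 falling genes of the same list stood at -0.039, 0.01, 0.466 and 0.19. Ribosome biogenesis had median positions over 28 rising genes of 0.563, 0.649, 0.741 and 0.704 in replicates 1 to 4. The 15 rising genes of mitosis, meiosis and spindle stood at 0.713, 0.627, 0.655 and 0.935, the most advanced list in replicate 4. The 22 rising splicing genes stood at 0.561, 0.544, 0.783 and 0.623, and the 11 of RNA polymerase II at 0.487, 0.707, 0.714 and 0.675. At the other end were the 11 rising genes of RNA decay, at 0.029, 0.11, 0.289 and 0.212, and the 7 of the proteasome, at 0.142, -0.111, -0.072 and 0.362. The 33 falling maternal genes stood at 0.213, 0.336, 0.397 and 0.351. Of 16 lists with at least 5 rising genes, replicate 3 was the highest of the 4 arrays in 7, replicate 4 in 6, replicate 2 in 2 and replicate 1 in 1, and replicate 2 was the lowest in 8 and replicate 1 in 7. Replicate 4 was highest for mitosis (0.935) and for histone modifiers (0.691), and replicate 1 for the inner cell mass list (0.522). Of 7 lists with at least 5 falling genes, replicate 3 was the highest in 5 and replicate 1 the lowest in 6.

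The spread over the 4 arrays was similar in size to that at the other stages. The median SD was 0.34 log2 units at the 2-cell stage, against 0.32 in oocytes, 0.37 in 1-cell embryos, 0.37 in 8-cell embryos and 0.39 in blastocysts, and an SD above 1 was found for 2.77% of probe sets, against 2.17%, 3.64%, 4.73% and 4.10%. Of the 200 most variable probe sets with a 2-cell mean of at least 500, 125 were of the falling set (62.5%, against 41.8% of all probe sets that bright), 33 of the rising set (16.5%, against 21.9%) and 42 of neither. In 116 of the 125 falling ones replicate 1 had the highest level, and in 26 of the 33 rising ones it had the lowest. Over all falling and all rising probe sets, replicate 1 was the least advanced in 53.2% and 42.9%. The 200 were chosen for their spread over these same 4 arrays, which by itself favours an extreme array. These counts are therefore no support for the order of the arrays.

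The most variable named genes were picked for the same spread and are given as a description. Arih2, a ubiquitin ligase that acts with cullins, read 57.8, 665, 1044 and 520 in 2-cell replicates 1 to 4, against 78.9 ± 33.4 in 1-cell and 2269 ± 276 in 8-cell embryos, so that replicate 1 was no higher than the 1-cell arrays and no replicate had reached the 8-cell level. Btaf1, an ATPase that removes TBP from DNA, read 329.9, 591, 1231 and 993, with 66.6 ± 22.3 in 1-cell and 1076 ± 116 in 8-cell embryos, and Nipal1, of a magnesium transporter family, read 520.5, 745.5, 1758 and 1524, with 216 ± 45.3 and 4565 ± 619. In all 3 of these rising genes replicate 1 was the lowest and replicate 3 the highest.

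Among falling genes, Psenen, a subunit of gamma-secretase, read 12031, 5078, 2692 and 4906, against 13797 ± 2097 in 1-cell and 2125 ± 231 in 8-cell embryos. Csmd3, a large membrane protein, read 1249.7, 624, 320.4 and 276, with 497 ± 52.8 and 53.6 ± 24.0, and Olfr976, an olfactory receptor gene, read 1375, 813, 357 and 518, with 1423 ± 331 and 45 ± 36.1. Replicate 1 was the highest in all 3, above the 1-cell mean for Csmd3 and close to it for Psenen and Olfr976. Nrxn3, a neurexin, and Pcnt, the centrosome protein pericentrin, were in neither set. Nrxn3 read 295, 1101, 1128.5 and 1482.5, low in replicate 1 alone, and Pcnt read 669, 595.5, 248.5 and 1075, low in replicate 3 and high in replicate 4.

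Transcripts above every other stage did not follow the order of the rising set. Among the 143, replicate 1 was the highest of the 4 arrays for 53 (37.1%) and replicate 3 the lowest for 58 (40.6%), where over all probe sets tested these shares were 25.1% and 23.9%. The 1518 probe sets that were higher without being above every stage had shares of 35.8% and 30.8%, and replicate 1 was also the highest for 46.2% of those below every stage. Pramel18, Speer4cos and Ppp1r2-ps7 were highest in replicate 1 and lowest in replicate 3, and Rfpl4b and Gm12789 were lowest in replicate 3. Utp14b, on the contrary, was highest in replicate 3, and Exoc3l2 was lowest in replicate 1. The order rests on 4 arrays and was not tested.

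**Figure D5:**
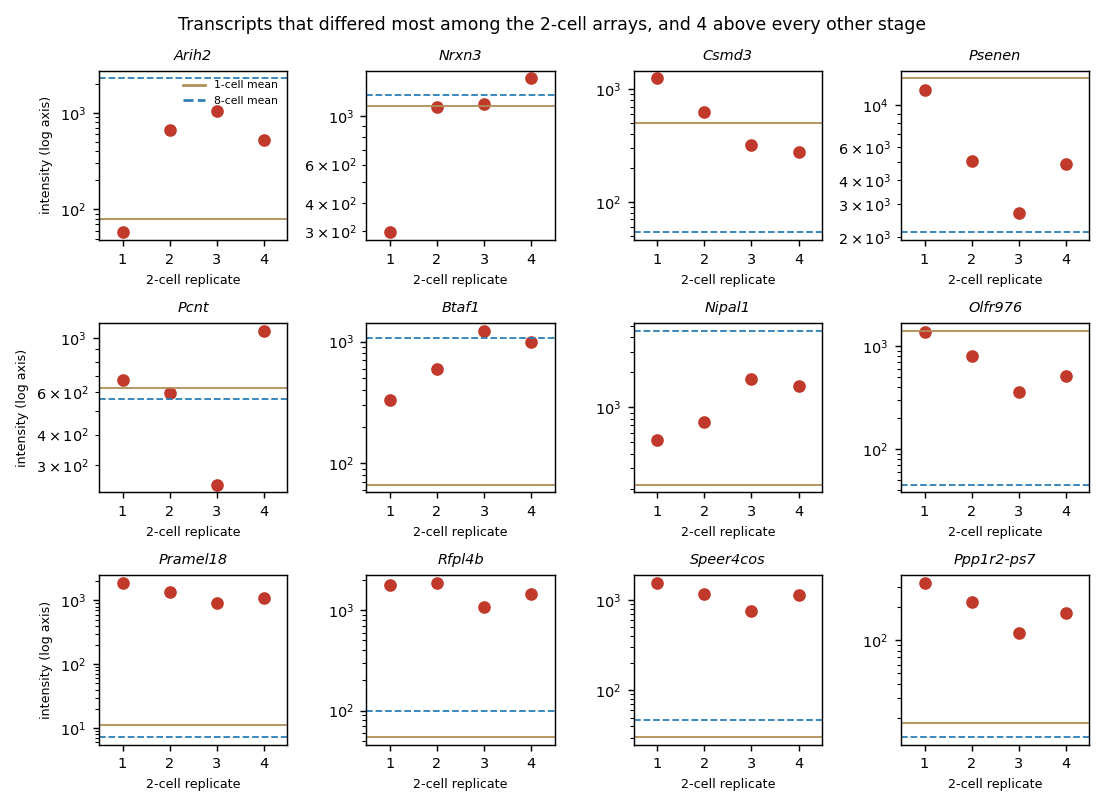
Intensity (log axis, scaled separately in each panel) in the 4 2-cell replicates for the 8 most variable named genes and for 4 genes above every other stage, with lines at the 1-cell mean (solid) and the 8-cell mean (dashed). Arih2, Btaf1 and Nipal1 are lowest in replicate 1 and highest in replicate 3, Psenen, Csmd3 and Olfr976 are highest in replicate 1, and Pramel18, Speer4cos and Ppp1r2-ps7 are highest in replicate 1 and lowest in replicate 3.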

How the data were processed

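The 4 2-cell arrays were compared with the 16 arrays of the other stages on Affymetrix MOE430B, with stages and replicate numbers taken from the sample titles. The deposited table holds linear intensities per probe set that the authors had scaled to a common mean (from the values, equal after trimming 2% at each end) but not quantile normalized. Neither the summarization software nor the scaling target is given in the sources used here, and there are no detection calls.

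Of 22511 probe sets other than 64 controls, 14661 have 1 gene symbol in the platform annotation, 245 several and 7605 none. Symbols were updated through Entrez identifiers (14486 found). Probe sets that reached 82.6, the median of the table, on at least 4 arrays were tested on log2(value + 20) in limma 3.58.1 (R 4.3.3), with stage means over all 20 arrays, 15 residual degrees of freedom and an intensity trend. A difference was the 2-cell mean minus the mean of the 4 other stage means. Transcripts above or below every other stage were called from the largest of 4 one-sided p-values. Adjusted p-values are Benjamini-Hochberg over all probe sets tested.

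Named genes are the 12 brightest, 14 farthest above and 8 farthest below every other stage, the 6 next largest differences each way, up to 3 of each of 20 lists and the 8 most variable, leaving out predicted genes and x_at probe sets. In the lists x_at probe sets were kept. The members and lists were chosen with earlier results of these data known. Figures and summaries used Python 3.11.15, and the tests were checked on simulated data.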

Additional observations from a re-analysis of the deposited data

Results flagged for a closer look

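Among 535 groups of 4 arrays, one for each named result and stage, 48 held an array apart from the other 3. Its gap to the nearest of them exceeded Dixon's critical value for that group's range, on linear intensities. A chance rate of about 1 in 20 groups holds for normally distributed values in independent groups. These groups share arrays and include genes picked for their 2-cell spread, so no excess over chance is read from the count. At the 2-cell stage there were 11, and in 9 of them replicate 1 was the highest: Atf7ip2 with 1298.3, Zfp511 with 16, Rnaseh2b with 211, Vnn1 with 78.5, Pfdn4 with 2148.4, Pfdn5 with 392.3, Uqcrh with 379.4, Mcm5 with 1276.1 and Gata6 with 189.9. The nearest of the other 2-cell arrays read 853.1 for Atf7ip2, 8.1 for Zfp511, 36.2 for Rnaseh2b, 14.5 for Vnn1, 1410.6 for Pfdn4, 268 for Pfdn5, 247.4 for Uqcrh, 1076.7 for Mcm5 and 44.7 for Gata6. The other 2-cell arrays apart were replicate 3 for Mtln, highest with 56.3 (nearest 22.3), and replicate 2 for Csta1, lowest with 1.7 (nearest 22.8).

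The other stages held 37 such arrays. In oocytes an array stood apart as the highest for Lsm14a (13078.1), Cdk13 (62.3), Vnn1 (52.3), Btaf1 (292.2), Eif6 (692.3) and Mrpl9 (3186.2) and an array stood apart as the lowest for Gyg (14525.7) and Aasdhppt (219.9). In 1-cell embryos an array stood apart as the highest for Gyg (19720.7), Selenoi (728.4), Nipal1 (283.9), Taf3 (1096.2), Dcp2 (407.2), Gata6 (135.3) and Cyp11a1 (219.8) and an array stood apart as the lowest for Cdk13 (14.9), Rnaseh2b (27.3) and Pcnt (266.6). In 8-cell embryos an array stood apart as the highest for Wee2 (167.8), Ppp1r2-ps7 (37.5), Obox6 (21768.3), Psenen (2470.3), Med13 (330.9), Gigyf2 (2249.3) and Bmp15 (124.7) and an array stood apart as the lowest for Nlrp4f (92.4), Klf17 (1976.7), Cdk13 (6), Pfdn4 (1269.6) and Amhr2 (624.3). In blastocysts an array stood apart as the highest for Klf17 (152.4), Csmd3 (54.1), Taf9b (12.6), Gm12789 (71.2) and Bmp15 (37.1) and an array stood apart as the lowest for Dnaja2 (7844.7) and Pcnt (368.3). The calls of Cdk13 and Ppp1r2-ps7 above every other stage were not lost under any alternative, these arrays left out included. Ppp1r2-ps7 had passed the brightness filter only through its 2-cell arrays, so this is no support for its call. What sets 2-cell replicate 1 apart in these genes was not tested.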

How the results depend on the processing

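Of the counts of probe sets against the other stages, only that below every other stage moved by over 1.5 times: it was 39, and 22 without the intensity trend and 23 at an adjusted p under 0.01. The count above every other stage was 143, and lay between 124 and 147 when 1 array was left out, as that below lay between 29 and 42, the higher count between 1327 and 1684 and the lower count between 1120 and 1459. The labels give all stages the replicate numbers 1 to 4, but over 40 same-number pairs the deviations from the stage means correlated at a median of 0.007 (-0.062 to 0.063) and 4 of 20 arrays correlated best with an array of their own number. With the replicate block 1657 probe sets were higher, 1412 lower, 147 above and 38 below every other stage.

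Of 3877 alternatives of 123 results for named genes, 3758 kept direction and call, 82 lost the call and 24 gained one, and no called value changed sign. In the other 13, of Ywhaq, Sf1, Lsm14a, Arih2 and Nrxn3, a value with no call in either setting changed sign. The median difference of all probe sets was 0.02, and -0.01 with quantile normalization. Of 264 alternatives of list counts, 10 moved by over 1.5 times, 8 of them on leaving a stage out of the mean, among them the maternal genes lower (6, and 3 without the oocyte or the 1-cell stage, 11 without the 8-cell stage). The median SD over the 2-cell arrays was 0.38 with a pseudocount of 5 and 0.25 with one of 80. All 17 alternatives for the position between the 1-cell and 8-cell stages had replicate 1 lowest and replicate 3 highest in both sets, while the gap between the sets shrank to between 0.028 and 0.079 with a pseudocount of 80. The depth of measurement is limited by the arrays' background, since changes of dim probe sets are understated and no detection calls were used.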

Other observations

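The transcripts above every other stage included further members of complexes and pathways than those named by rule, and the genes here were chosen after their values were seen. Cdk12, the partner kinase of Cdk13 on the RNA polymerase II tail, averaged 521 in the 2-cell arrays, against 213 in 8-cell embryos, and was 1.25 log2 units above the nearest stage. Srcap, the ATPase of a complex that places histone H2A.Z, averaged 426 against 84.5 in 8-cell embryos (2.04 above the nearest stage), and Epc2, of the NuA4 acetyltransferase complex, 3635 against 1790.5 in 1-cell embryos (1.01). Pld6 and Pnldc1, both enzymes of piRNA biogenesis in germ cells, had 2-cell means of 443 and 1016, against 199.7 for Pld6 in oocytes and 435 for Pnldc1 in 8-cell embryos, the nearest stages. Cggbp1, a CGG repeat-binding protein, averaged 7159 against 1462 in 8-cell embryos (2.28), and Slc19a3, a thiamine transporter, 3453 against 833 (2.02). Ccnjl, a cyclin-like gene, was called by 2 probe sets, with means of 706 and 304.

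Among transcripts below every other stage were both subunits of an enzyme that attaches a prenyl lipid to small GTPases. Fnta, its alpha subunit, averaged 4046 in the 2-cell arrays, against 8110 in 8-cell embryos, and lay -1.02 log2 units from the nearest stage. Pggt1b, its beta subunit, averaged 117, against 236 in oocytes, and lay -0.88 from the nearest stage. Ssr3, of the translocon-associated complex of the endoplasmic reticulum, was called by both of the probe sets named for it, at -1.28 and -1.80. Rbpj, the DNA-binding factor of Notch signalling, averaged 246, against 561.5 in oocytes, and lay -1.11 from the nearest stage. These pairs were picked for their likeness, and nothing further was tested on them.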
